A study of Mus musculus with 6 samples.

Results

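Thrombospondins and CCN proteins are matricellular proteins, secreted molecules that sit in the extracellular matrix and signal to cells rather than build fibres. Their genes were followed here in the stria vascularis of Slc26a4 knockout mice. The genes were Thbs1, Thbs2, Thbs3 and Thbs4, and Ccn1 to Ccn5, formerly Cyr61, Ctgf, Nov, Wisp1 and Wisp2. Every probe set annotated to exactly one of these 9 symbols was taken, which gave 9 of 18193 singly named genes and 17 of the 45037 probe sets on the array that are not controls. Thbs1 and Ccn1 drew attention to the families because both were higher in knockout samples, and the question was whether the relatives shared that direction. The knockout minus heterozygote differences of these genes are therefore given as descriptions, with no test.

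RNA came from the stria vascularis, the secretory epithelium of the cochlear lateral wall, at postnatal day 10, before hearing starts. The first group was 3 arrays of Slc26a4 knockout mice (replicates 2, 4 and 6), in which the gene of the anion exchanger pendrin is disrupted. The other was 3 arrays of Slc26a4 heterozygous mice (replicates 1, 3 and 5), so the controls also carried 1 disrupted allele. The labels give no strain, sex, design of the allele or pooling of animals, and any spread between arrays may be technical in part.

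The products of Thbs1 and Thbs2 are trimers that bind cell surface receptors such as Cd36 and Cd47, and thrombospondin 1 can activate latent TGF-beta. Those of Thbs3 and Thbs4 are pentamers that lack the type 1 repeats through which thrombospondin 1 binds Cd36 and activates TGF-beta. CCN proteins bind integrins and proteoglycans. In many cells Ccn1 and Ccn2 are switched on quickly by YAP with TEAD factors, by serum response factor and by TGF-beta, while Ccn3 often moves against them.

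RefSeq promoter sequence (build GRCm38.p6) was at hand for 4 of the 9 genes, Ccn1, Thbs2, Thbs3 and Thbs4. The first and last are shown, because Ccn1 was higher and Thbs4 lower in knockout samples, though Thbs4 was dim, under the signal cutoff given below. Each run covers the 250 bases before the transcription start, 5′ to 3′ on the gene's strand, at chr3:145649986-145650235 (minus strand) for Ccn1 and chr13:92794819-92795068 (minus strand) for Thbs4. Capitals mark the TEAD letters CATTCC, the core letters of the cyclic AMP response element TGACGT (read here on the opposite strand as ACGTCA) and the TATA letters TATAAA.
Ccn1: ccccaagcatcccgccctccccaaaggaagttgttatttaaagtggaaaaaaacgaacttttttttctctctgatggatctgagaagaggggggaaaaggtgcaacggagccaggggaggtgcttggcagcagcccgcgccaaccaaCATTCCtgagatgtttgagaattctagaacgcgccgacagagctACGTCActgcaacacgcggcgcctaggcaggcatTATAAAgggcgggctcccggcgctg
Thbs4: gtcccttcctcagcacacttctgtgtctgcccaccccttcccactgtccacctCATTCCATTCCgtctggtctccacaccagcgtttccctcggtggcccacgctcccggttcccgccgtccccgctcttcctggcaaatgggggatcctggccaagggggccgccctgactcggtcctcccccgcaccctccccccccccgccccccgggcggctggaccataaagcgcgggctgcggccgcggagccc

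Counting back from the start, the Ccn1 window held 1 TEAD match at bases 103 to 98, 1 cyclic AMP element core at bases 59 to 54 and 1 TATA match at bases 25 to 20, none of which overlap. In Thbs4 there were 2 TEAD matches, at bases 197 to 192 and 192 to 187, which share a base. The windows of Thbs2 and Thbs3 held none of these letters. No window held TGANTCA, the AP-1 letters, or a CArG box, the site of serum response factor. Over 32851 promoter windows of the same length, 12.6% held the TEAD letters, 6.47% the cyclic AMP element core and 6.75% the AP-1 letters, each on either strand. The TATA letters, searched on the gene's strand only, were in 7.59% and a CArG box in 1.47%. A match is a description of the sequence and not a site of binding, and no binding was measured.

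Signals are the array's intensity on a linear scale, and differences are on log2(signal + 16), which understates the change of dim genes. A probe set was kept for the fit where its mean over all arrays reached the 40th percentile, a signal of 46.3. This held for 14 of the 17 probe sets and 6 of the 9 genes. Thbs3, Thbs4 and Ccn5 had their only probe set under that cutoff. On their brightest probe sets, 6 genes were higher in knockout samples (Thbs1, Thbs2, Thbs3, Ccn1, Ccn2 and Ccn5) and 3 were lower (Thbs4, Ccn3 and Ccn4). Of the 17 probe sets, 13 were higher and 4 lower, but 6 of the 13 belonged to Thbs1 and Ccn1, whose direction was known when they were chosen. The 7 relatives had 11 probe sets, 7 higher and 4 lower, where 53.0% of all probe sets were higher, and centring the arrays on their medians made this 5 and 6. Every knockout array lay above every heterozygous array on 6 of the 17, against 10.4% of all probe sets, and below on 3, against 5.23% of all. The 6 were both probe sets of Thbs1 (the dimmer one kept only through its knockout arrays), 3 of Ccn1 and the dim Thbs3. The 3 were both probe sets of Ccn3 and the dim Thbs4. The 7 relatives thus had 1 of 11 above, near the share of all probe sets, and 3 of 11 below. Thbs1 and Ccn1 were chosen for being higher, so nothing is read from the 6 of 17. The limma test over 27022 probe sets called 0.00370% of them, which is Fgf18 alone, and none of the 14 kept here was called at the adjusted threshold of 0.05. Before adjustment, 9 of the 14 were under 0.05, against 11.7% of all, and nothing is read from this because the genes were picked on the same contrast.

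**Figure D1:**
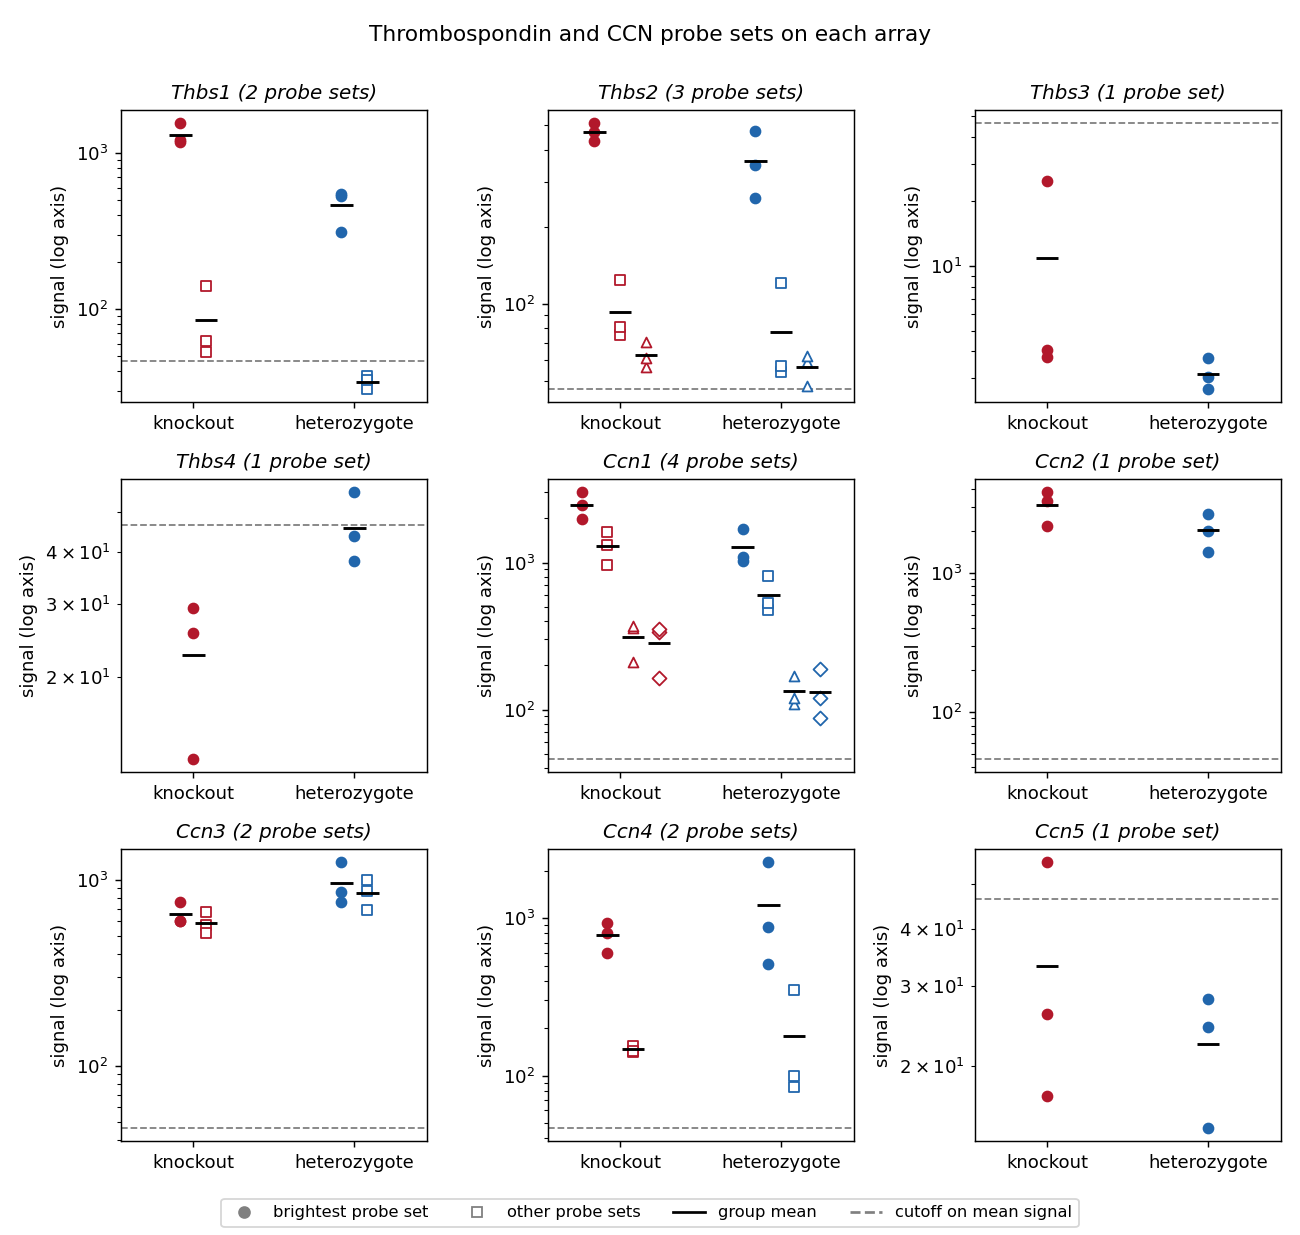
Signal (log axis, a different range in each panel) of every thrombospondin and CCN probe set on the 3 knockout and 3 heterozygous arrays, with filled circles for the brightest probe set of a gene, bars for group means and a dashed line at the cutoff of 46.3. The knockout points of Thbs1 lie above the heterozygous ones, those of Ccn3 lie below, and Ccn4 has a wide heterozygous spread.

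Thbs1 had the largest difference among these genes. On its brighter probe set the signal was 1556, 1166 and 1206 in knockout replicates 2, 4 and 6, against 312, 530 and 548 in heterozygous replicates 1, 3 and 5. The lowest knockout array thus had more than any heterozygous array, and the groups were far apart. The means were 1309 ± 214 in knockout and 463 ± 131 in heterozygous samples (SD, n = 3 each), and the log2 difference was 1.50 ± 0.23 (SE), or 2.82-fold. Leaving out each array in turn gave 1.24 to 1.64. Its other probe set had 141, 53.4 and 62.1 in knockout replicates 2, 4 and 6, against 37.2, 30.8 and 35.1 in heterozygous replicates 1, 3 and 5. It was kept only through its knockout arrays, all heterozygous values being under the cutoff, so no fold is given and it adds no support.

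Thbs2, the closest relative of Thbs1 in domain structure, was on 3 probe sets, and the groups overlapped on all of them. The brightest had 434, 470 and 510 in knockout replicates 2, 4 and 6, against 348, 475 and 260 in heterozygous replicates 1, 3 and 5. Only heterozygous replicate 3 reached the knockout range. Means were 471 ± 38.2 in knockout and 361 ± 108 in heterozygous samples (SD, n = 3 each), and the log2 difference was 0.41 ± 0.23 (SE). Leaving out heterozygous replicate 5 gave 0.20, and leaving out heterozygous replicate 3 gave 0.62. The other 2 probe sets gave 0.27 ± 0.32 and 0.13 ± 0.25 (SE). The first of them gave 0.08 without knockout replicate 6 and 0.58 without heterozygous replicate 3, and the last gave 0.04 without heterozygous replicate 1 and turned to -0.07 under quantile normalisation and under median centring.

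The pentameric thrombospondins gave little signal. Thbs3 had 4.05, 24.8 and 3.75 in knockout replicates 2, 4 and 6, against 2.67, 3.04 and 3.72 in heterozygous replicates 1, 3 and 5. Its higher knockout mean came from replicate 4, and on the other arrays the groups were parted only by 3.75 against 3.72. Thbs4 had 12.7, 25.6 and 29.3 in knockout replicates 2, 4 and 6, against 37.9, 43.6 and 55.6 in heterozygous replicates 1, 3 and 5. Here every knockout array lay below every heterozygous one, the opposite of Thbs1. No fold is given for either gene, since both group means were under the cutoff.

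Ccn1 was measured by 4 probe sets that all lay higher in knockout samples. The brightest had 3002, 2471 and 1973 in knockout replicates 2, 4 and 6, against 1694, 1023 and 1093 in heterozygous replicates 1, 3 and 5. Knockout replicate 6 and heterozygous replicate 1 came nearest to each other. Means were 2482 ± 514 in knockout and 1270 ± 369 in heterozygous samples (SD, n = 3 each), and the log2 difference was 0.97 ± 0.21 (SE), or 1.96-fold. The other probe sets gave log2 differences of 1.09 ± 0.25, 1.12 ± 0.27 and 1.01 ± 0.34 (SE). On the last, knockout replicate 6 (164) lay below heterozygous replicate 1 (188), so the groups overlapped, while they did not on the others. The 4 probe sets read the same transcript and are not independent. Of these, 2, the brightest included, have the name ending that marks possible cross-hybridisation, as does the second brightest of Thbs2. Leaving out each array in turn kept all 4 between 0.78 and 1.37.

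Ccn2, the connective tissue growth factor, had 1 probe set. Its signal was 3790, 2188 and 3285 in knockout replicates 2, 4 and 6, against 1411, 2020 and 2664 in heterozygous replicates 1, 3 and 5. The groups overlapped, because knockout replicate 4 was below heterozygous replicate 5. Means were 3088 ± 819 in knockout and 2032 ± 627 in heterozygous samples (SD, n = 3 each), and the log2 difference was 0.61 ± 0.25 (SE). Leaving out heterozygous replicate 1 gave 0.37, and leaving out knockout replicate 4 gave 0.84. Among the heterozygous arrays replicate 1 was the highest for Ccn1 and the lowest for Ccn2, so these relatives did not follow each other there.

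Ccn3, which in many cells restrains growth and opposes Ccn2, lay on the other side. Its brighter probe set had 763, 604 and 603 in knockout replicates 2, 4 and 6, against 1249, 862 and 765 in heterozygous replicates 1, 3 and 5. The highest knockout and the lowest heterozygous value almost met, and heterozygous replicate 1 was the highest of all. Means were 657 ± 92.4 in knockout and 959 ± 256 in heterozygous samples (SD, n = 3 each), and the log2 difference was -0.51 ± 0.21 (SE). The other probe set gave -0.52 ± 0.19 (SE), with 671, 574 and 516 in knockout and 1003, 870 and 688 in heterozygous samples. Groups did not overlap on either, and the brighter one has the name ending that marks possible cross-hybridisation. Without heterozygous replicate 1 the brighter probe set gave -0.31, and without heterozygous replicate 5 it gave -0.66.

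Ccn4, a target of Wnt signalling in many cells, varied most within a group. Its brighter probe set had 598, 806 and 924 in knockout replicates 2, 4 and 6, against 510, 877 and 2273 in heterozygous replicates 1, 3 and 5. One array, heterozygous replicate 5, stood far above the rest, and the other probe set showed the same array high (352, against 98.7 and 84.3 in the other heterozygous arrays). Of all probe sets kept, 1.49% had a larger within-group SD than the brighter one. The log2 differences were -0.39 ± 0.44 and 0.01 ± 0.43 (SE). Without heterozygous replicate 5 they were 0.19 and 0.60, so the direction rested on that array. Slc26a4 was also highest there, at 1006.

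Ccn5, a CCN protein without the C-terminal domain of its relatives, stayed near background. It had 26.1, 55.9 and 17.2 in knockout replicates 2, 4 and 6, against 28.0, 24.4 and 14.6 in heterozygous replicates 1, 3 and 5. Only knockout replicate 4 was above the cutoff, and the groups overlapped. The median log2 difference over all 9 genes was 0.40 and over the 7 relatives without Thbs1 and Ccn1 0.30. All kept genes had -0.04, and all probe sets, dim ones included, 0.02. The member medians were the values of the dim Thbs3 and Ccn5, so they rest on signals under the cutoff. Without knockout replicate 4 they were 0.06 over the 9 genes and -0.02 over the 7.

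**Figure D2:**
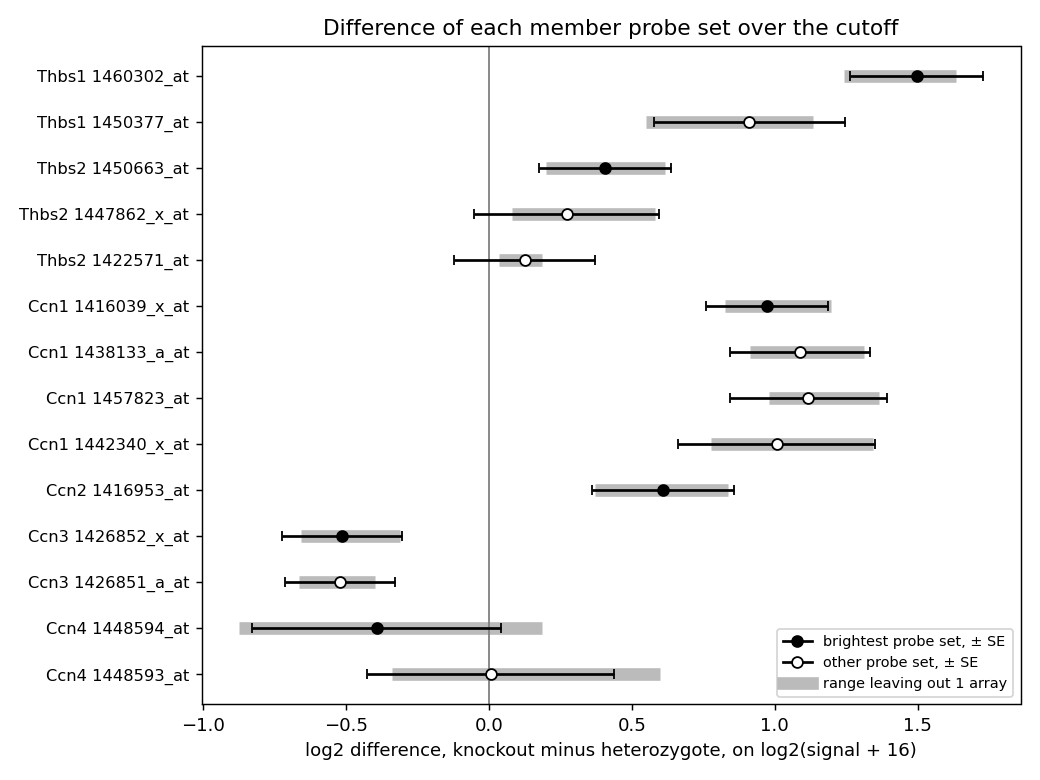
Log2 difference (knockout minus heterozygote, on log2(signal + 16)) of the 14 probe sets over the cutoff, with bars for the SE and grey bands for the range when 1 array is left out (n = 3 each). Thbs1 at 1.50 and Ccn1 at 0.97 lie right of zero, Ccn3 at -0.51 lies left, and only the bands of Ccn4 cross zero.

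Ratios between members within an array hardly depend on how whole arrays are scaled. The 5 pairs were chosen after the values were seen and carry no test, and in 3 of them the groups did not overlap. No share over other gene pairs was computed, so nothing is read from this count. Relative to its heterozygous mean, the log2 ratio of Ccn1 to Ccn3 was 1.56, 1.61 and 1.29 in knockout replicates 2, 4 and 6. In heterozygous replicates 1, 3 and 5 it was 0.04, -0.15 and 0.11. The groups could not overlap, since on these probe sets every knockout array lay above for Ccn1 and below for Ccn3. The difference was 1.49, with within-group SDs of 0.17 in knockout and 0.14 in heterozygous samples. Heterozygous replicate 1, high for both genes, thus lay with its group in the ratio. The ratio of Ccn2 to Ccn3 differed by 1.12, with an SD of 0.31 in knockout and 0.81 in heterozygous samples, and the groups did not overlap. For Thbs1 over Thbs2 the difference was 1.09, again without overlap, with 0.87 as the lowest knockout and 0.69 as the highest heterozygous value. The ratio of Thbs1 to Ccn1 overlapped between the groups, from 0.36 to 0.73 in knockout and from -0.95 to 0.50 in heterozygous samples. Ccn1 over Ccn2 overlapped as well, with a difference of 0.36 and an SD of 0.45 in knockout and 0.81 in heterozygous samples.

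Genes whose array profile was most like that of Thbs1 and of Ccn1 were named by the root mean square difference between log2 profiles over the 6 arrays, each centred on its own mean. The pool was 12415 genes with 1 probe set each, and likeness to a gene chosen for its genotype difference favours genes with that same difference. The choice also favours genes that share the highs and lows of Thbs1 or Ccn1 within a group, so such sharing is no separate finding. Nearest to Thbs1 were Npr3, the natriuretic peptide clearance receptor (0.19), Itih3, a hyaluronan-binding protein (0.21), and Meox2, a homeobox factor of mesoderm and vessels (0.23). Scn7a, a sodium channel relative (0.27), and Hsd11b2, which inactivates glucocorticoids (0.28), came next. Npr3 had 3707, 3229 and 3287 in knockout replicates 2, 4 and 6, against 769, 1385 and 1020 in heterozygous replicates 1, 3 and 5. Meox2 and Hsd11b2 were kept through their knockout arrays, with heterozygous means of 38.4 and 32.8 under the cutoff, so their distances are rough. Heterozygous replicate 1 was the lowest array for all 5 of these genes, as for the brighter Thbs1 probe set used here, though not for the dim one. Members were farther from Thbs1 than these, with Ccn2 at 0.48, Ccn1 at 0.56 and Thbs2 at 0.68. The 5 genes were the nearest of the whole pool by choice. No share of the pool was computed for the members' distances, so nothing is read from this order.

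Nearest to Ccn1 were Cpt1c, a carnitine palmitoyltransferase relative (0.13), 4930456A14Rik (0.15) and Gm20199 (0.16), for which no role is given here, Col16a1, a fibril-associated collagen (0.17), and Echdc2, a mitochondrial hydratase relative (0.20). Col16a1 had 791, 758 and 486 in knockout replicates 2, 4 and 6, against 435, 254 and 372 in heterozygous replicates 1, 3 and 5. Heterozygous replicate 1 was the highest heterozygous array for all 5, as it was for Ccn1. On these brightest probe sets, heterozygous replicate 1 was thus the lowest heterozygous array for Thbs1 and the highest for Ccn1.

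**Figure D3:**
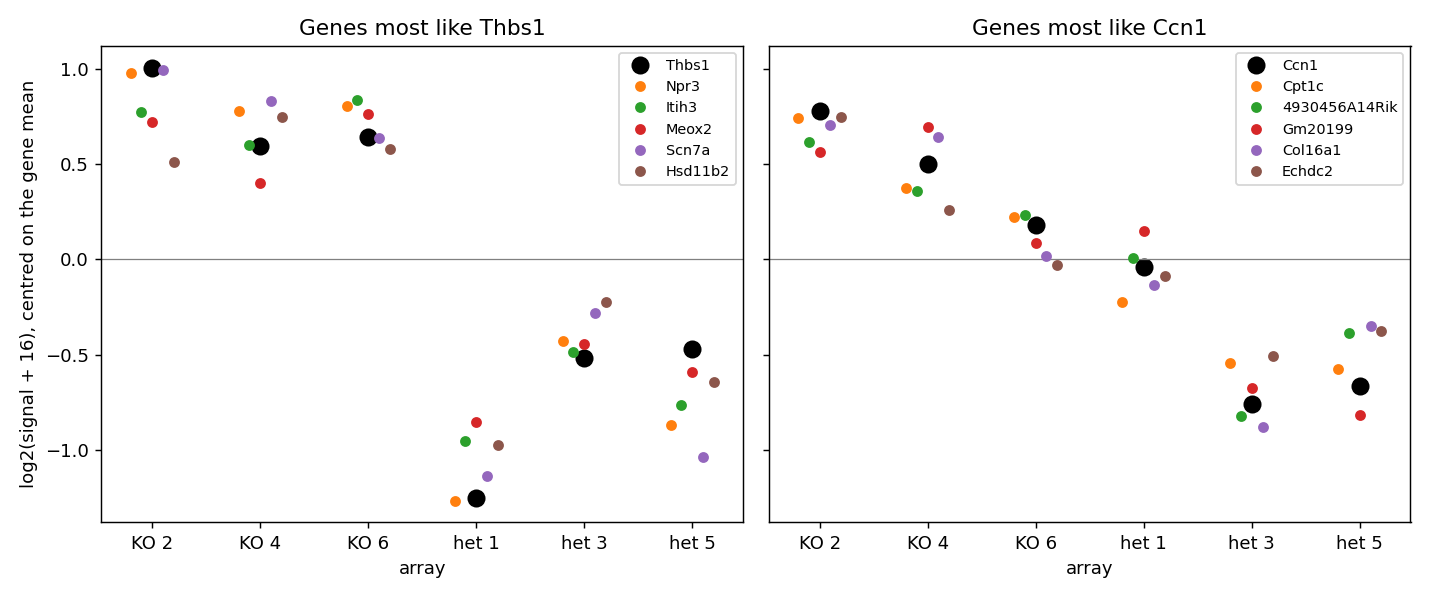
Log2(signal + 16) centred on each gene's mean, for Thbs1 (left) and Ccn1 (right) in large black points with the 5 genes nearest to each, on the 3 knockout (KO) and 3 heterozygous (het) arrays. Heterozygous replicate 1 is the lowest array in the left panel and the highest heterozygous array in the right one.

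Related genes were read from 6 lists of receptors, regulators and other matricellular proteins, in all 102 genes that are not members, of which 89 were kept. The limma test called 0 of the 89 at the adjusted threshold of 0.05, where 0.00805% of 12421 genes were called. Before adjustment 2 were under 0.05 and higher and 3 lower, against 3.21% and 3.23% of all genes. The median log2 difference of the 89 was -0.02, with 40 higher and 49 lower, beside -0.04 over all genes, of which 43.1% were higher.

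Among 14 thrombospondin receptors and partners, all kept, 9 were higher and 5 lower with a median of 0.09. Itgav, an integrin subunit that also binds CCN proteins, had 8277 ± 906 in knockout and 7192 ± 160 in heterozygous samples (SD, n = 3 each), and the log2 difference was 0.20 ± 0.09 (SE, limma adjusted p = 0.429). Calr, which relays thrombospondin signals with Lrp1, differed by 0.15 (limma adjusted p = 0.452). Median centring put both just below zero. CCN receptors and partners had 7 of 12 kept genes higher, a median of 0.03, and Itga5, a fibronectin receptor subunit, at -0.22 (limma adjusted p = 0.480), which became 0.13 with the mean of its probe sets.

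The other matricellular proteins had 9 of 15 genes kept, 5 higher and 4 lower, with a median of 0.02. Postn, periostin of bone and ligament, had 283, 234 and 281 in knockout replicates 2, 4 and 6, against 132, 235 and 140 in heterozygous replicates 1, 3 and 5. The groups just overlapped, with a log2 difference of 0.65 ± 0.25 (SE, limma adjusted p = 0.382). Sparcl1, an anti-adhesive relative of Sparc, differed by -0.21 ± 0.09 (SE, limma adjusted p = 0.406).

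None of the genes of pathways that drive Ccn1, Ccn2 and Thbs1 in other cells passed the threshold. Of 25 YAP and TEAD genes kept, 12 were higher and 13 lower, with a median of -0.04. Igfbp3, an insulin-like growth factor binding protein on that list, had 629 ± 366 in knockout and 1217 ± 403 in heterozygous samples (SD, n = 3 each), and the log2 difference was -1.01 ± 0.37 (SE, limma adjusted p = 0.374). Tgfb2, a TGF-beta ligand, differed by -0.41 (limma adjusted p = 0.447), with -0.26 without knockout replicate 2 and -0.63 with array weights. Of 21 TGF-beta pathway genes kept, 8 were higher and 13 lower, with a median of -0.04. Ltbp2, a matrix protein related to the latent TGF-beta binders, had 707, 509 and 656 in knockout replicates 2, 4 and 6, against 288, 367 and 332 in heterozygous replicates 1, 3 and 5. Those groups did not overlap, and the log2 difference was 0.88 ± 0.20 (SE, limma adjusted p = 0.371). Pmepa1, a TGF-beta-induced inhibitor of Smad signalling, differed by -0.23 (limma adjusted p = 0.445).

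Of 13 serum response factor genes kept, 3 were higher and 10 lower, with a median of -0.07. Acta2, smooth muscle actin, had 220, 79.9 and 88.8 in knockout replicates 2, 4 and 6, against 428, 352 and 417 in heterozygous replicates 1, 3 and 5. All knockout arrays were below all heterozygous ones, and the test was not passed at a log2 difference of -1.63 ± 0.33 (SE, limma adjusted p = 0.349). Tagln, a smooth muscle cytoskeletal protein, differed by -0.62 (limma adjusted p = 0.428). Knockout replicate 2 was the highest knockout array for Acta2 and Tagln, but the lowest for Vcl, Fos and Junb of the same list. It was the highest knockout array on 8 of the 17 member probe sets, including Ccn2 and the brightest of Thbs1 and Ccn1. On 2 other Ccn1 probe sets replicate 4 was higher (371 against 357, and 353 against 337).

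**Figure D4:**
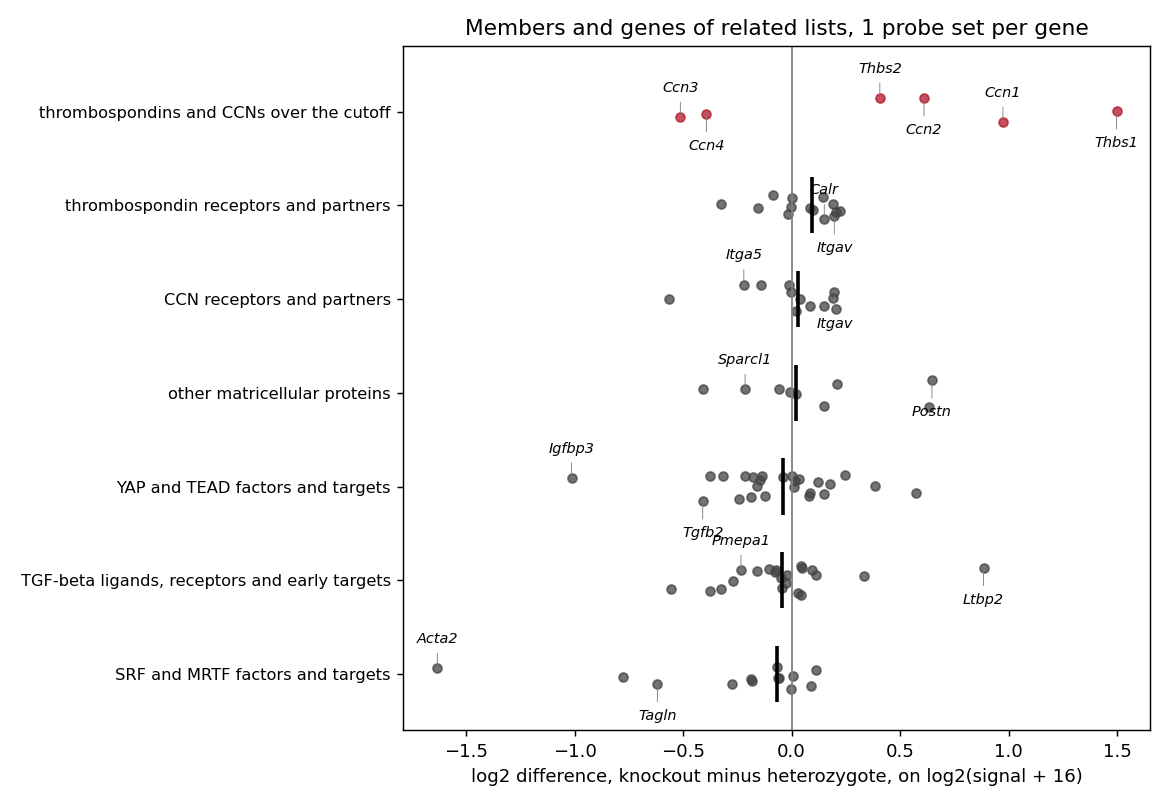
Log2 differences (knockout minus heterozygote, on log2(signal + 16)) of the 6 members over the cutoff, in red, and of the kept genes of 6 related lists, in grey with a bar at the list median. The list medians lie between -0.07 and 0.09, and the 2 genes with the smallest p of each list are labelled.

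Marker signals of some cell types also differed between the groups, and any part of cell content in the member values was not tested. In such bulk RNA, fewer cells of a type and less RNA per cell cannot be told apart. In cartilage and bone, where matricellular genes are also active, 10 of the 11 markers with a singly named probe set were higher. Runx2, Bglap and Spp1, also listed, had no probe set annotated to their symbol alone, so their presence on the array is not settled here. All 11 were kept, but Mmp9 only through its knockout arrays, with a heterozygous mean of 32.9 under the cutoff. The summed signal of the cartilage and bone markers ran from 19449 to 24220 in knockout and from 13986 to 15878 in heterozygous samples, without overlap. Fibrocyte markers summed to between 40249 and 43442 in knockout and between 29631 and 43953 in heterozygous samples, where replicate 5, the high Ccn4 array, gave the top value, and 6 of 10 were higher. Pericyte and smooth muscle markers were lower for 8 of 10 kept genes, with Cnn1 under the cutoff. Des and Myh11 were kept through their heterozygous arrays, with knockout means of 45.6 and 43.3 under the cutoff. The pericyte and smooth muscle markers summed to between 7673 and 12805 in knockout and between 10633 and 13298 in heterozygous samples. Platelets store thrombospondin 1. Of 6 platelet markers with a singly named probe set, Itga2b, Gp9, Ppbp and Treml1 were under the cutoff. The sums of the 6 were 526 to 1042 in knockout and 539 to 700 in heterozygous samples, with the top in knockout replicate 2.

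**Figure D5:**
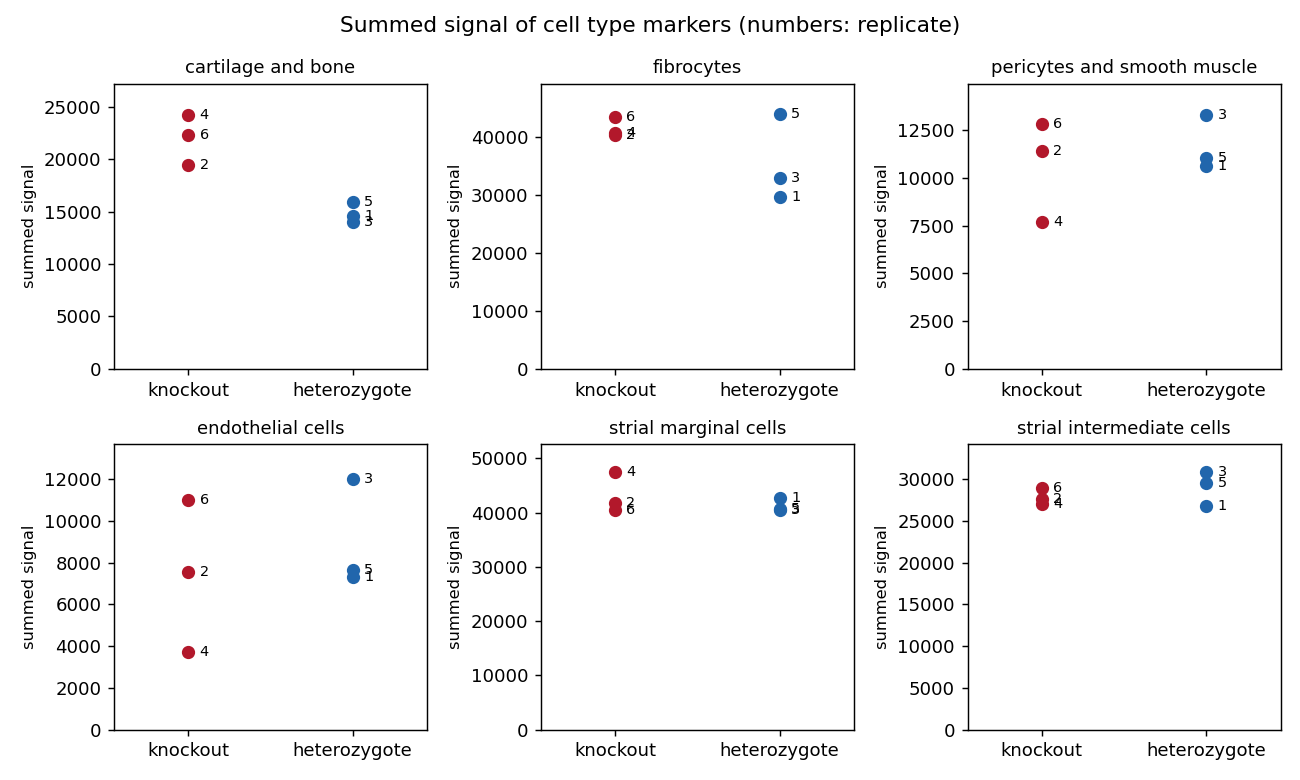
Summed signal (linear axis from zero) of the markers of 6 cell types on each array, with the replicate number beside each point. The knockout points lie above the heterozygous ones for cartilage and bone, while the groups overlap for the other types, and knockout replicate 4 is lowest for endothelial markers.

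The tissue and the arrays were checked once for the whole series. All 7 marginal cell markers with a singly named probe set, 7 of 8 intermediate and all 6 basal cell markers were over the cutoff. Tyrp1 was the exception. All 11 such markers of cartilage and bone, 11 of endothelial cells, 11 of macrophages and 10 of fibrocytes also passed. Passing thus does not tell the stria from other tissue. Slc26a4 had 75.5, 106 and 154 in knockout replicates 2, 4 and 6, against 221, 248 and 1006 in heterozygous replicates 1, 3 and 5. Where its probes lie with respect to the disruption is unknown here, so the signal left in knockout samples, over the cutoff on each array, cannot be assigned to a transcript. Knockout replicate 4 stood apart, with a median root mean square log2 difference from the other arrays of 0.72, where the others had 0.40 to 0.47, and its endothelial markers summed to 3726 against 7292 to 12014 in heterozygous samples. Without it the log2 difference was 1.57 for Thbs1 and 0.97 for Ccn1. Of probe sets at an unadjusted p under 0.05, 78.8% were higher in knockout samples as deposited, 64.6% after quantile normalisation and 32.1% after median centring, which lowers all differences by 0.20 on the log2 scale. After median centring Thbs1 still differed by 1.30, Ccn1 by 0.77 and Ccn3 by -0.71.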

How the data were processed

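Total RNA was extracted with a Qiagen kit, labelled with the NuGEN Ovation method and hybridised to Affymetrix whole-genome mouse arrays, per the labels. The authors deposited linear signal intensity from the software GCOS, per the submitters' processing notes, which name no version. With 2% trimmed off each end, every array averaged 500.002, which shows a common scaling before deposit. No genome build applies to them.

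Of 45101 probe sets, 64 controls were left out, and the 40th percentile filter kept 27022. Values were fitted as log2(signal + 16) with limma 3.58.1 in R 4.3.3 (eBayes with a variance trend, two-sided, Benjamini-Hochberg over all 27022, threshold 0.05), and the fit was tested on simulated data. Genes were named from the platform annotation: 34945 probe sets had 1 symbol, 932 several and 9160 none. The brightest kept probe set stood for a gene. Named were all members, Slc26a4, the 2 genes with the smallest p of each related list and the 5 nearest to Thbs1 and to Ccn1. Single genes named beside these, such as Fgf18 and Cnn1, were picked after their values were seen. Members, lists and tests were chosen with earlier results of these data known. The number of arrays limits the precision. Figures were drawn with matplotlib 3.10.9.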

Additional observations from a re-analysis of the deposited data

Results flagged for a closer look

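A further probe set was left out because the platform annotation gives it 2 genes, Thbs1 and Pald1, so its signal cannot be assigned to either. It is given because it lies outside the values used above and was higher in every knockout array than in any heterozygous one. It had 6652, 5736 and 4978 in knockout replicates 2, 4 and 6, against 3207, 3140 and 3526 in heterozygous replicates 1, 3 and 5. The means were 5789 ± 838 in knockout and 3291 ± 206 in heterozygous samples (SD, n = 3 each), and the log2 difference, given with no test, was 0.80.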

How the results depend on the processing

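Over 15 alternatives (offsets of 1 and 64, quantile normalisation, median centring, no filter or the 60th percentile, no variance trend, array weights, averaging the probe sets per gene, and leaving out each array), Thbs1 to Thbs4 and Ccn1 to Ccn3 kept their direction in each. Apart from the averaging, this was read on the brightest probe set. The filter settings and the one without a variance trend cannot change a member's difference, so they say nothing about its direction. Ccn4 turned to 0.19 on its brighter probe set without heterozygote replicate 5 (range -0.87 to 0.19 with 1 array left out), and Ccn5 to -0.019 without knockout replicate 4. The dimmer Ccn4 probe set turned below zero with an offset of 64, quantile normalisation, median centring and array weights. It did so too without knockout replicate 4 or heterozygote replicate 1 or 3. The dimmest Thbs2 probe set turned under quantile normalisation and median centring. Among the related genes Itgav became -0.0026 and Calr -0.049 under median centring, and Itga5 0.13 with the mean of probe sets. The number of member probe sets higher in knockout was 11 to 14, the median over the 9 genes 0.06 to 0.54 and the log2 difference of Slc26a4 -2.07 to -1.02 when 1 array was left out. The probe sets called over the whole array were 1 as reported, 3 with quantile normalisation or median centring, 0 with no filter or the 60th percentile, 23 with array weights, and 0 to 13 with 1 array left out, the last without knockout replicate 4. The related genes called were 0 in all 15. Counts of probe sets have no value for the mean of probe sets. The cause of these changes was not tested. No paired analysis was possible because the knockout replicates (2, 4 and 6) and the heterozygous ones (1, 3 and 5) share no number. No detection calls were used, so dim signals have no bound.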

Other observations

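The families have other relatives outside the 9 genes. Comp, the cartilage pentamer also called thrombospondin 5, had 124, 109 and 160 in knockout replicates 2, 4 and 6, against 121, 185 and 110 in heterozygous replicates 1, 3 and 5, and the groups overlapped. Ccn6 had 7.04, 9.28 and 5.93 in knockout replicates 2, 4 and 6, against 11.5, 24.3 and 7.22 in heterozygous replicates 1, 3 and 5, all under the cutoff and overlapping.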
